A study of Homo sapiens with 18 samples.

Results

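Hyaluronan, a glycosaminoglycan of the pericellular matrix, is made, precursor-supplied and bound by the products of 5 genes described here: the synthases HAS2 and HAS3, the precursor enzyme UGDH, and the receptors CD44 and HMMR. The 5 genes are 5 of the 60642 symbols in the deposited count tables, and all 5 were among the 15298 genes with enough counts to be tested. They were picked for their function in hyaluronan metabolism, but HAS2 was also picked because Dex lowered it in control cells and because its level depended on HP1γ. Its values in every comparison that uses siNS or siHP1γ libraries are therefore given as a description, and a test of HAS2 is given only within siPRMT5 cells.

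The cells were MDA-MB-231, an established human triple-negative breast cancer (TNBC) line of mesenchymal type. Dex (dexamethasone) is a synthetic glucocorticoid that activates the glucocorticoid receptor (GR, gene NR3C1), and the study asked how HP1γ (gene CBX3) and the arginine methyltransferase PRMT5 act in GR-dependent transcription. Cells received a non-specific siRNA (siNS), an siRNA against HP1γ (siHP1γ) or an siRNA against PRMT5 (siPRMT5), and each was then given 100 nM Dex or ethanol vehicle (Eth) for 8 h. The 6 conditions have 3 replicates each, 18 RNA-seq libraries in all, and every condition carries both a transfection and a vehicle or hormone. The result is therefore that of 1 cell line with transient depletion by siRNA.

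HAS2 and HAS3 are membrane enzymes that join UDP-glucuronic acid and UDP-N-acetylglucosamine into the hyaluronan chain and extrude it from the cell. UGDH makes the UDP-glucuronic acid from UDP-glucose. CD44 is the main cell-surface receptor for hyaluronan and is linked to the actin cortex by ezrin, radixin and moesin, whereas HMMR (RHAMM) binds hyaluronan and also acts on the mitotic spindle. In breast cancer cells, hyaluronan and CD44 are known for their roles in adhesion and migration.

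Library totals ranged from 8682992 to 12472381 counted reads. CBX3 and PRMT5 were checked first: CBX3 had a log2 fold change of -4.69 without Dex and -4.06 with Dex in siHP1γ cells, and PRMT5 fell to 2.96% and 4.41% of siNS in siPRMT5 cells. TSC22D3 and PER1, direct GR targets, rose with Dex in siNS, siHP1γ and siPRMT5 cells (TSC22D3 log2 fold changes 3.64, 2.63 and 3.24). In siPRMT5 cells TSC22D3 was already at 226% of siNS without Dex (adjusted p = 7.08e-09, same test). NR3C1 was at 124% of siNS in siPRMT5 cells with Dex (adjusted p = 0.0062) and at 113% without Dex (adjusted p = 0.121). The mesenchymal markers VIM, ZEB1 and FN1 were present in all libraries, CDH1, ESR1 and PGR had at most 2 counts, and the leukocyte and fibroblast markers PTPRC, CD3E and DCN had at most 2 counts. EPCAM (8.57 to 14.0 CPM), ERBB2 (24.5 to 36.0 CPM), PECAM1 (1.10 to 8.15 CPM) and COL1A1 (2.69 to 15.1 CPM) were detected at low levels. Here CPM is the count times 1000000 over the scaled library size.

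The 5 members differed widely in level. Per kilobase of annotated exon, the mean level in siNS Eth cells was 81.0 CPM per kb for CD44, 18.6 for HMMR, 12.4 for HAS2, 7.19 for UGDH and 0.596 for HAS3. In siHP1γ Eth cells the mean level of HAS2 was 2.22 CPM per kb, below that of UGDH (7.07 CPM per kb). This scale assumes that reads came from the whole transcript, which the sources used here do not state. HAS3 was read with 25 to 56 counts per library and HAS2 with 85 to 504, so counting error weighs most on HAS3, while CD44 had 4795 to 8072 counts.

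HAS2 (ENSG00000170961, hg38 chromosome 8, 121612116 to 121641440, minus strand) is described first. As it was selected for its changes with Dex and HP1γ depletion, their size is not ranked against that of the other members. In siNS cells its level was 55.6, 50.7 and 51.5 CPM with Eth (replicates 1 to 3) and 19.8, 27.3 and 21.5 CPM with Dex. All 3 Dex libraries lay below all 3 Eth libraries, an order found for 13.3% of all genes tested, and HAS2 was selected for this fall. The mean was 52.6 ± 2.67 CPM without Dex and 22.9 ± 3.96 CPM with Dex (SD, n = 3). The log2 fold change was -1.21 ± 0.0971 (SE), that is, Dex left 43.3% of the Eth level. Without siNS Dex replicate 2, the highest of the Dex libraries, it was -1.35. In such bulk samples, fewer cells with the transcript and less transcript per cell cannot be told apart.

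In siHP1γ cells HAS2 was at 9.01, 9.73 and 9.55 CPM with Eth and at 9.52, 9.09 and 8.74 CPM with Dex. These 6 libraries were the lowest of the 18, an order whose share over all genes was not counted, and those with and without Dex overlapped. Against siNS cells the log2 fold change was -2.48 ± 0.109 without Dex and -1.31 ± 0.115 with Dex, where 40.2% of the siNS level was left. The log2 fold change with Dex was -0.047, and the Dex response differed from that of siNS cells by 1.16 on the log2 scale. As HAS2 was selected on these comparisons, no p or interval is given for them in the text, and each SE describes the fit only. The bars drawn for them in the figure of fitted fold changes likewise describe the fit and are no test.

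In siPRMT5 cells HAS2 was at 21.7, 24.4 and 22.3 CPM with Eth and at 22.0, 22.0 and 20.4 CPM with Dex. All 6 lay above every siHP1γ library and below every siNS Eth library, and they overlapped with the siNS Dex libraries. The share of all genes with this order was not counted. For the siPRMT5 Eth against the siNS Eth libraries alone, 25.1% of all genes tested were lower in all 3. Without Dex, HAS2 in siPRMT5 cells was at 43.3% of siNS (log2 fold change -1.21 ± 0.0983). No p is attached to this comparison or the next, since their siNS libraries served in the selection of HAS2.

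With Dex, HAS2 in siPRMT5 cells differed from siNS by -0.081 on the log2 scale, and by 0.063 without siNS Dex replicate 2. Within siPRMT5 cells, whose 6 libraries were not used in the selection, the Dex response of HAS2 was -0.083 (95% interval -0.30 to 0.13, adjusted p = 0.685, edgeR quasi-likelihood test with Benjamini-Hochberg adjustment over all genes tested). The Dex responses of siPRMT5 and siNS cells differed by 1.13 on the log2 scale, given without a test or interval because the difference contains the selecting comparison.

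Ordered by level, HAS2 thus stood highest in siNS Eth cells. The siNS Dex, siPRMT5 Eth and siPRMT5 Dex conditions came next with overlapping libraries and means of 22.9, 22.8 and 21.5 CPM. The siHP1γ Eth and siHP1γ Dex conditions were last, with overlapping libraries and means of 9.43 and 9.12 CPM. HAS2-AS1, transcribed from the opposite strand of the HAS2 locus, had 3 to 18 counts per library and was not called in any comparison. The strand setting of the counting is not given, so reads of an overlapping antisense gene cannot be told apart from those of the member itself.

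**Figure D1:**
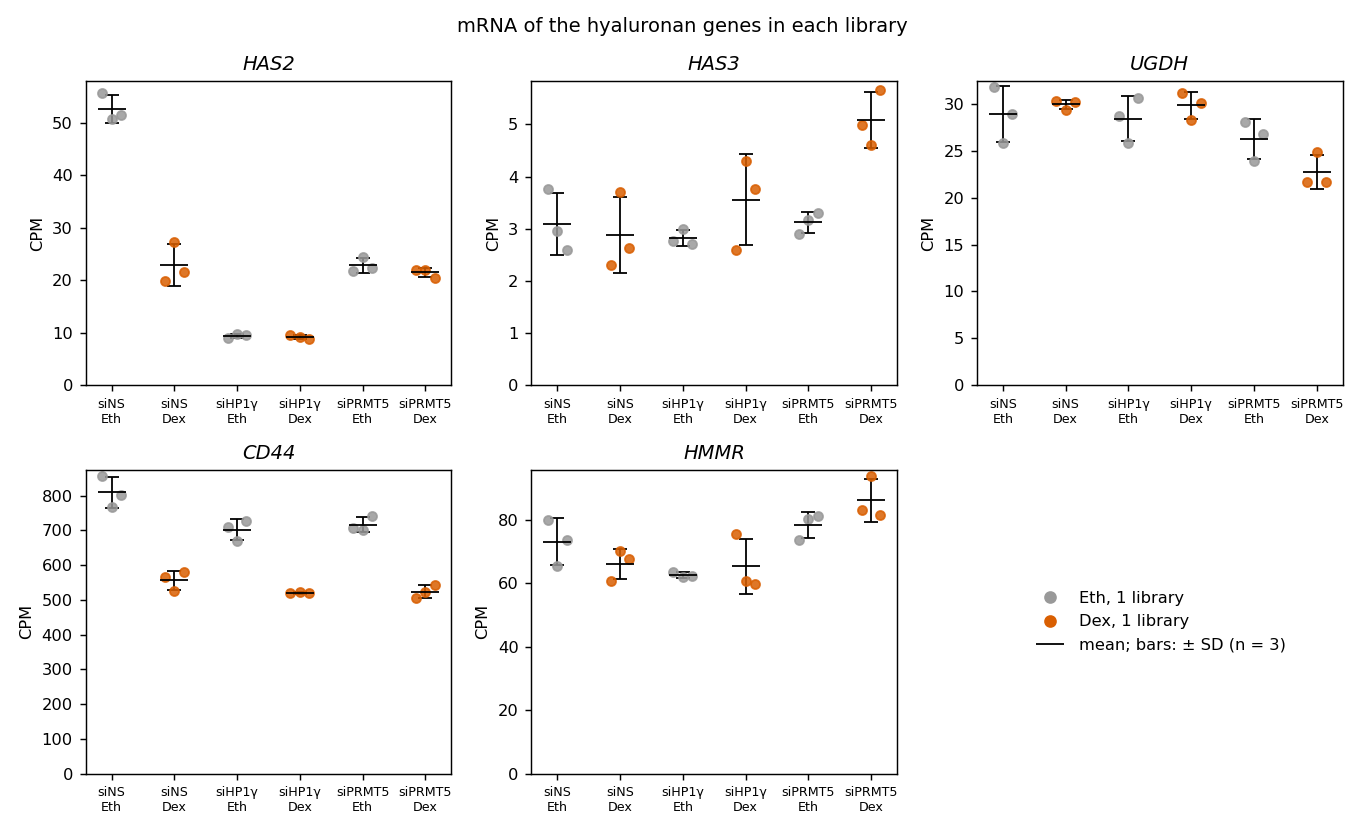
Level of each hyaluronan gene (CPM, linear axis from 0) in the 18 libraries, by condition. Points are libraries, horizontal marks the mean and bars ± SD (n = 3). HAS2 stands at 50.7 to 55.6 CPM in siNS Eth cells and at 8.74 to 9.73 CPM in siHP1γ cells, and CD44 is lower with Dex than with Eth under each siRNA.

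HAS3 (ENSG00000103044, chromosome 16, 69105653 to 69118719, plus strand), the other synthase, followed a different course. It stood at 3.75, 2.96 and 2.59 CPM in the siNS Eth libraries and at 2.30, 3.70 and 2.63 CPM in the siNS Dex libraries, which overlapped. In siPRMT5 cells it was at 2.90, 3.17 and 3.30 CPM with Eth and at 4.99, 4.60 and 5.66 CPM with Dex. The 3 siPRMT5 Dex libraries were the highest of the 18. The share of all genes with this order was not counted. Against the siNS Dex libraries alone, 25.0% of all genes tested were higher in all 3.

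With Dex, HAS3 rose to 178% of siNS after PRMT5 depletion (log2 fold change 0.83 ± 0.207, adjusted p = 0.00205). The Dex response within siPRMT5 cells was 0.69 ± 0.208 on the log2 scale with an adjusted p of 0.0225, which missed the limit of 0.01 set for Dex responses. Its difference from the Dex response in siNS cells was 0.81 (95% interval 0.17 to 1.45, adjusted p = 0.145), so that a change of the Dex response was not shown. In siHP1γ cells the libraries ranged from 2.60 to 4.30 CPM, and neither depletion comparison passed the test (adjusted p = 0.705 without Dex and 0.337 with Dex). HAS3 overlaps CHTF8 on the opposite strand, which had 15 to 49 counts per library and a log2 fold change of -0.59 (adjusted p = 0.0977) between siPRMT5 Dex and siNS Dex, opposite in sign to that of HAS3. HAS1, the remaining synthase gene, had 0 counts in each of the 18 libraries, which allows up to 3 counts per library.

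The 250 bases before the RefSeq start of HAS3 (GRCh38.p14, chr16:69107290-69107539, plus strand) lie inside the annotated gene but hold no GENCODE exon, and are shown because HAS3 was the synthase that was higher in siPRMT5 Dex cells. They were searched on both strands for the GR palindrome (the half-sites GNACA and TGTNC set 3 bases apart), which would be in capitals, and for the AP-1 site TGANTCA, and neither was found.
HAS3: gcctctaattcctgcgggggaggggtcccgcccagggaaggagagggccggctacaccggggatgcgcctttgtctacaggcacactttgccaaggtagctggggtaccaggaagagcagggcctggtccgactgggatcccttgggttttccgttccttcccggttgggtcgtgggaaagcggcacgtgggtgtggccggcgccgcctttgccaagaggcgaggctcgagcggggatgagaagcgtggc
Of all 35116 promoter windows of 300 bases, 0.39% hold the GR palindrome and 7.71% the AP-1 site. Neither was found in the windows of UGDH, CD44 and HMMR, and the window of HAS2 was not analysed here. A loose NF-κB pattern (GGG and CC set 5 bases apart, matches counted on both strands and allowed to overlap) matched 5 times in HAS3, 5 times in UGDH and 4 times in CD44, and 58.7% of all windows hold it.

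UGDH (ENSG00000109814, chromosome 4, 39498755 to 39528311, minus strand) varied little. Its libraries ranged from 25.9 to 31.9 CPM across siNS and siHP1γ cells with and without Dex, and the 4 conditions overlapped. In siPRMT5 cells it was at 28.1, 24.0 and 26.8 CPM with Eth and at 21.7, 24.9 and 21.7 CPM with Dex. With Dex, UGDH fell to 76.1% of siNS after PRMT5 depletion, with all 3 libraries below the siNS Dex libraries (log2 fold change -0.39 ± 0.0973, adjusted p = 0.00192). Without Dex the difference was -0.13 (95% interval -0.34 to 0.068, adjusted p = 0.29). UGDH-AS1 on the opposite strand had 2 to 23 counts per library.

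CD44 (ENSG00000026508, chromosome 11, 35138882 to 35232402, plus strand) was lower with Dex under all 3 siRNAs. In siNS cells it stood at 857, 768 and 803 CPM with Eth and at 565, 526 and 579 CPM with Dex. In siHP1γ cells the values were 711, 668 and 727 CPM with Eth and 518, 523 and 520 CPM with Dex. In siPRMT5 cells they were 706, 701 and 742 CPM with Eth and 506, 521 and 543 CPM with Dex. The Dex and Eth libraries did not overlap under any siRNA. Of all genes tested, 13.3% were lower in all Dex libraries in siNS cells, 11.7% in siHP1γ cells and 14.8% in siPRMT5 cells.

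The log2 fold change of CD44 with Dex was -0.54 ± 0.0608 in siNS cells (adjusted p = 3.23e-07), -0.43 ± 0.0607 in siHP1γ cells (adjusted p = 1.81e-05) and -0.45 ± 0.0608 in siPRMT5 cells (adjusted p = 3.17e-06). Dex thus left 68.8%, 74.1% and 73.1% of the Eth level. These changes are smaller than the 1.5-fold limit set for Dex responses, so CD44 was not called under that rule. With the same limit on p and no fold limit, 2.35% of all genes tested were lower in siNS cells, 1.77% in siHP1γ cells and 5.39% in siPRMT5 cells.

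The CD44 response to Dex in siHP1γ cells differed from that in siNS cells by 0.11 on the log2 scale (95% interval -0.069 to 0.28, adjusted p = 0.554). For siPRMT5 cells the difference was 0.086 (95% interval -0.090 to 0.26, adjusted p = 0.638). Neither difference passed the test. The 1.16 and 1.13 given for HAS2 contain the Dex response on which HAS2 was selected, so their size cannot be set against these values. Whether the differences of HAS2 and CD44 themselves differ was not tested.

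Without Dex, CD44 was lower than in siNS cells after depletion of HP1γ (log2 fold change -0.20 ± 0.0605, adjusted p = 0.0112) and of PRMT5 (-0.18 ± 0.0606, adjusted p = 0.0216). Both calls were lost without siNS Eth replicate 1, the highest of the siNS Eth libraries (-0.17, adjusted p = 0.0601, and -0.14, adjusted p = 0.102). The call after HP1γ depletion was also lost without siHP1γ Eth replicate 2 (adjusted p = 0.0664). That after PRMT5 depletion was lost without siPRMT5 Eth replicate 1 (adjusted p = 0.0606) or 2 (adjusted p = 0.0686). With Dex, neither depletion moved CD44 past the threshold (adjusted p = 0.263 and 0.25). CD44-AS1, on the opposite strand, had at most 1 count per library.

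HMMR (ENSG00000072571, chromosome 5, 163460203 to 163491941, plus strand) stood at 80.0, 65.4 and 73.7 CPM in siNS Eth cells and at 60.8, 70.1 and 67.5 CPM in siNS Dex cells. In siPRMT5 cells it was at 73.7, 80.2 and 81.1 CPM with Eth and at 83.2, 93.9 and 81.4 CPM with Dex. The 3 siPRMT5 Dex libraries were the highest of the 18, as for HAS3, and the share of all genes with this order was not counted. With Dex, HMMR rose to 131% of siNS after PRMT5 depletion (log2 fold change 0.39 ± 0.0910, adjusted p = 0.00125). The corresponding value without Dex was 0.10 (95% interval -0.088 to 0.29, adjusted p = 0.406), and the difference between the Dex responses of siPRMT5 and siNS cells did not pass the test (0.28, adjusted p = 0.227).

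In siHP1γ cells HMMR was at 63.6, 61.8 and 62.4 CPM with Eth and at 75.4, 60.7 and 59.8 CPM with Dex. The siHP1γ Eth libraries all lay below the siNS Eth libraries, with a log2 fold change of -0.22 ± 0.0924 that did not pass the test (adjusted p = 0.0692). It passed when siNS Eth replicate 2 (adjusted p = 0.0231) or siHP1γ Dex replicate 1 (adjusted p = 0.0273) was left out. HMMR-AS1 had at most 2 counts per library.

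The promoter window of HMMR is shown because genes of mitosis were among those most alike to HMMR over the libraries, as described further on. The window, counted from the RefSeq start (position 0) on GRCh38.p14, plus strand, lies in exons of other HMMR transcripts in GENCODE and held the cell-cycle homology element (CHR, TTTGAA) at -28 and -22 and the CCAAT box at 5 positions, on either strand. The first line gives chr5:163460594-163460623 with the adjacent CHR matches in capitals, and the second chr5:163460550-163460579 with the CCAAT boxes at -69 and -66, which overlap on opposite strands, in capitals.
HMMR, CHR: tgtggggagaTTTGAATTTGAAaccggtag
HMMR, CCAAT: ggggtttggctttCCAATTGGctaacgccg
Among all promoter windows of 300 bases, 15.2% hold a CHR match, 34.6% a CCAAT box and 5.9% both. No CHR match or CCAAT box was found in the windows of HAS3, UGDH and CD44. A match of letters does not show that a factor is bound there.

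**Figure D2:**
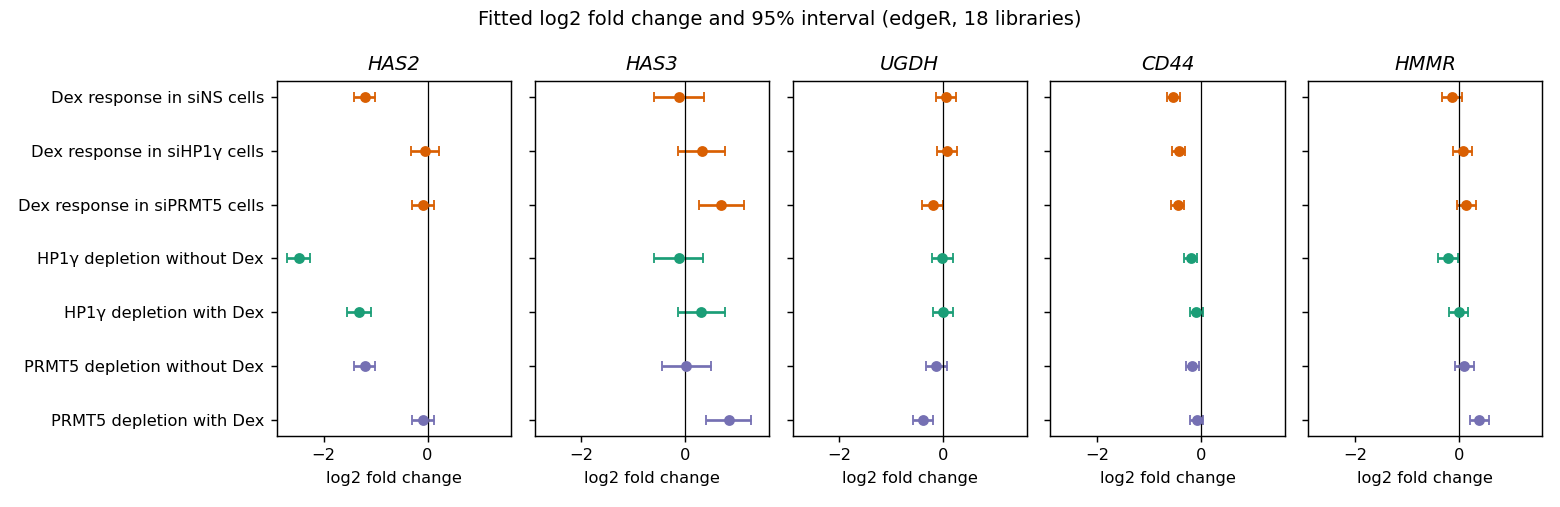
Fitted log2 fold change (x axis) with its 95% interval (bars) of each member in the Dex responses (orange, Dex against Eth), the HP1γ depletions (green) and the PRMT5 depletions (purple, both against siNS). CD44 lies below 0 in the 3 Dex responses, and HAS3 and HMMR lie above 0, and UGDH below 0, after PRMT5 depletion with Dex. Except within siPRMT5 cells, the bars of HAS2 are a description and no test, since HAS2 was selected on these libraries.

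Counted over the members, PRMT5 depletion with Dex called 3 of the 4 given a test (HAS3 and HMMR higher, UGDH lower), and 42.4% of all genes tested were called. In that comparison the libraries of these 3 genes did not overlap, which held for 25.0% of all genes in the higher and 26.5% in the lower direction. Of the same 4, PRMT5 depletion without Dex called CD44 alone, which was lower, against 42.1% of all genes, and 25.1% of all genes were lower in every siPRMT5 library. HP1γ depletion without Dex also called CD44 alone among these 4, against 31.8% of all genes, and 21.7% of all genes were lower in every siHP1γ library, as CD44 and HMMR were. These shares do not set the members apart from the other genes. HP1γ depletion with Dex called 0 of the 4, against 24.0% of all genes, with edgeR, at an unadjusted p under 0.05 and with DESeq2. The HP1γ and PRMT5 comparisons share their siNS libraries and are not independent of each other.

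No member that was given a test met the rule for Dex responses. The rule called 2.71% of all genes in siNS cells, 1.67% in siHP1γ cells and 5.44% in siPRMT5 cells. The count by edgeR and by DESeq2 was 0 of 4 in siNS and siHP1γ cells and 0 of 5 in siPRMT5 cells, and 1, 1 and 2 members had an unadjusted p under 0.05. For the differences of the Dex response, which called 0.399% of all genes for HP1γ and 3.80% for PRMT5, edgeR and DESeq2 called 0 of the 4 members given a test, and 0 and 2 had an unadjusted p under 0.05.

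The genes around the members were taken from lists of the hyaluronan pathway, without the members. Of 69 such symbols in the files, 46 had enough counts to be tested. The supply of UDP sugars had 11 genes tested. After HP1γ depletion, 2 were higher and 4 lower without Dex, and 3 were higher and 3 lower with Dex, where 16.5% and 11.7% of all genes tested were higher and 15.2% and 12.3% lower.

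UGP2, which makes the UDP-glucose that UGDH uses, fell to 59.0% of siNS without Dex and 71.5% with Dex after HP1γ depletion (log2 fold changes -0.76 and -0.48). After PRMT5 depletion it rose with Dex by 0.58 on the log2 scale, to 149%. GFPT2, an entry enzyme of the hexosamine pathway, rose by 0.80 without Dex and by 0.70 with Dex after HP1γ depletion. After PRMT5 depletion its log2 fold change was 0.37 without Dex and -0.21 with Dex. The call with Dex was lost without siNS Dex replicate 1 or siPRMT5 Dex replicate 2. PGM3 and UAP1, later enzymes of that pathway, fell after PRMT5 depletion without Dex (-0.54 and -0.60) and with Dex (-0.40 and -0.38). UAP1 also fell after HP1γ depletion without Dex (-0.39). In all, PRMT5 depletion called 4 genes of the supply list higher and 3 lower without Dex, and 3 higher and 5 lower with Dex, where 20.6% of all genes tested were higher in either case and 21.6% and 21.9% lower.

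Among the genes of hyaluronan breakdown, 6 were tested. PRMT5 depletion lowered HYAL2, a hyaluronidase anchored at the cell surface, to 62.1% without Dex and 58.4% with Dex (adjusted p = 0.000169 and 1.40e-05). CEMIP2, a cell-surface protein of hyaluronan turnover, rose to 190% and 154% (adjusted p = 5.14e-08 and 2.00e-05). HP1γ depletion with Dex called HEXA higher and GUSB lower, which both encode lysosomal glycosidases and are named after their values were seen. The call of HEXA was lost without siNS Dex replicate 2 (adjusted p = 0.0700) or 3 (0.0512) or siHP1γ Dex replicate 2 (0.0667), and that of GUSB when each of 5 libraries was left out in turn, with adjusted p up to 0.221 (without siNS Dex replicate 3). GUSB also missed the threshold with DESeq2 (adjusted p = 0.0522) and with the replicate block (adjusted p = 0.0514).

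Of the other receptors, LAYN (layilin), TLR2 and TLR4 were tested. LAYN fell after PRMT5 depletion to 52.3% without Dex and 54.6% with Dex (adjusted p = 4.09e-08 and 1.53e-07). TLR4, a pattern receptor that responds to hyaluronan fragments, was at 31.9 to 37.9 CPM in siPRMT5 Eth cells and at 11.8 to 18.9 CPM in the other 5 conditions. The share of all genes with such an order was not counted. PRMT5 depletion without Dex raised TLR4 to 221% (adjusted p = 4.47e-09), and Dex lowered it to 49.2% in siPRMT5 cells (adjusted p = 4.44e-08). In siNS and siHP1γ cells its log2 fold change with Dex was 0.00056 and 0.00084, and the difference between siPRMT5 and siNS cells was -1.02 (adjusted p = 0.000393). TLR2, at 0.751 to 7.89 CPM under the minimum for named genes and named after its values were seen, rose with Dex in siNS, siHP1γ and siPRMT5 cells (log2 fold changes 1.83, 1.81 and 2.46).

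The CD44 list holds linkers to the cortex, sheddases and a ligand, and 9 of its genes were tested. EZR (ezrin), 1 of the linkers, rose with Dex from 618 ± 27.6 to 1068 ± 21.4 CPM in siNS cells (log2 fold change 0.79, adjusted p = 1.20e-10) and by 0.93 in siPRMT5 cells (adjusted p = 2.84e-12). In siHP1γ cells it went from 524 ± 9.98 to 672 ± 23.3 CPM, a log2 fold change of 0.36 under the fold limit, and the difference from siNS cells was -0.43 (adjusted p = 0.0135). That call was lost without siNS Eth replicate 1 (-0.41, adjusted p = 0.0609) or siHP1γ Eth replicate 3 (-0.41, adjusted p = 0.0582). EZR thus moved with Dex in the opposite direction to CD44 in siNS cells. The linkers MSN (moesin, mean 1455 CPM against 709 for EZR) and RDX (radixin) were not called for a Dex response under any siRNA. MMP14, a membrane protease that can shed CD44, fell with Dex by 0.90 on the log2 scale in siPRMT5 cells, while its value was -0.24 in siNS cells, a difference of -0.66 (adjusted p = 0.00296). After HP1γ depletion without Dex, MMP14 rose by 0.59. MMP9, at a mean of 1.44 CPM and named after its values were seen, was also lower with Dex in siPRMT5 cells (adjusted p = 0.00258). It missed the limit of 0.01 with DESeq2 (adjusted p = 0.0106) and without siPRMT5 Dex replicate 1 (0.0201) or 2 (0.0250) or siPRMT5 Eth replicate 2 (0.0131) or 3 (0.0205). ADAM17, a further sheddase, and ANK3, an ankyrin linker, rose after HP1γ depletion without Dex by 0.46 and 0.55, while NF2 (merlin) fell by 0.54. After HP1γ depletion with Dex, NF2 fell by 0.83 and EZR by 0.67. PRMT5 depletion also raised ADAM17, by 0.40 without and 0.38 with Dex, and ANK3 by 0.58 with Dex. It lowered EZR by 0.39 without and 0.25 with Dex. These rises and this fall were thus not particular to HP1γ depletion.

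**Figure D3:**
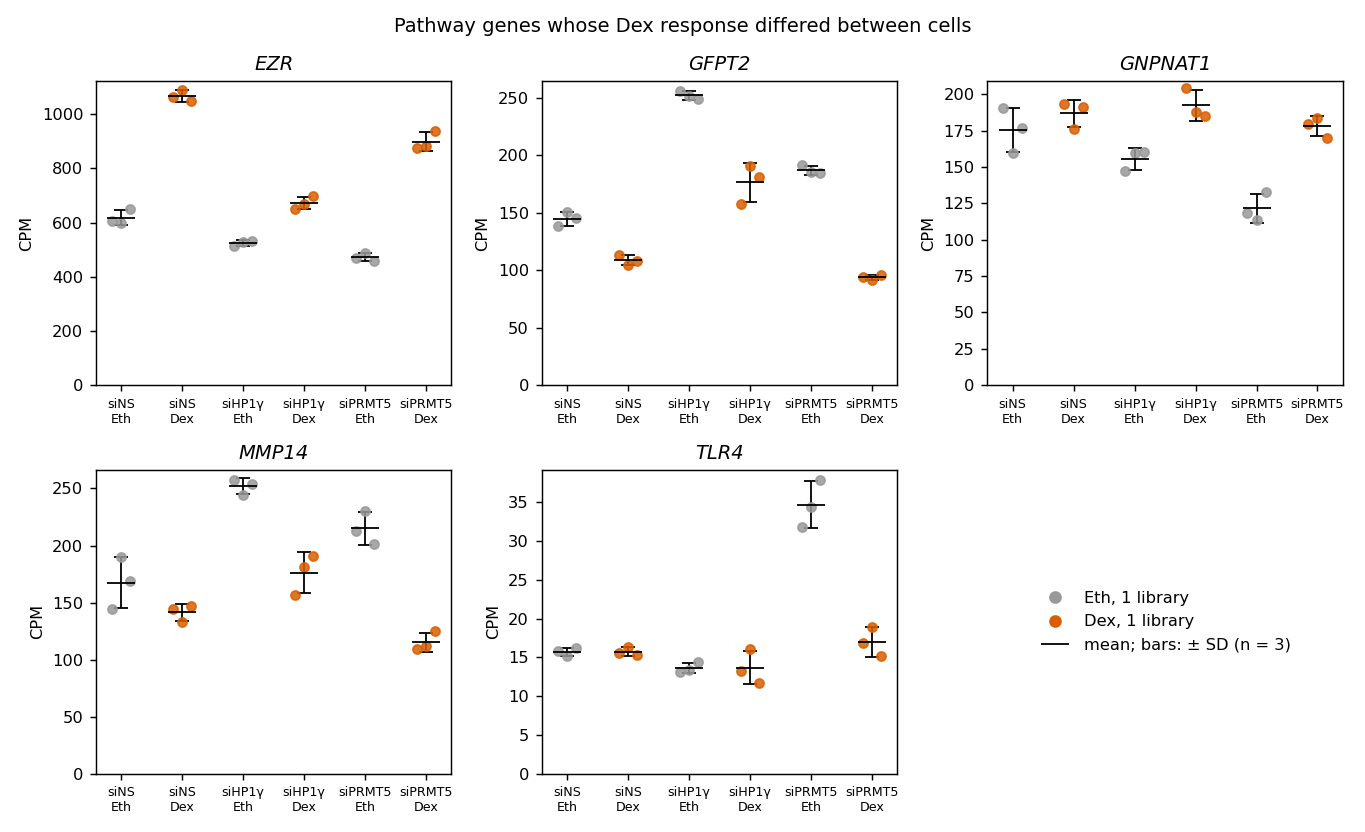
Level (CPM, linear axis from 0) of EZR, GFPT2, GNPNAT1, MMP14 and TLR4, the pathway genes whose Dex response in depleted cells differed from that in siNS cells, in the 18 libraries. Points are libraries, horizontal marks the mean and bars ± SD (n = 3). TLR4 stands at 31.9 to 37.9 CPM in siPRMT5 Eth cells, and EZR reaches 1049 to 1091 CPM in siNS Dex cells.

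The spindle and mitotic partners of HMMR were 13 genes, and all 13 were tested. HP1γ depletion lowered 6 of 13 without Dex and 6 of 13 with Dex, against 15.2% and 12.3% of all genes tested lower. With Dex, the number lower was 3 without siNS Dex replicate 1 or 2 and 2 without siNS Dex replicate 3, 3 with DESeq2 on the 6 libraries compared, and 2 with library size as the only scaling, which called 1 of the 13 higher. The median log2 fold change over the 13 genes was -0.20 without Dex, where the median of all genes was 0.013, and -0.16 with Dex, where that of all genes was 0.0049. TOP2A, the topoisomerase of mitotic chromosomes, fell by 0.44 without Dex, and MKI67, the proliferation marker Ki-67, fell by 0.52 with Dex.

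PRMT5 depletion called 5 of the 13 higher and 2 lower without Dex, and 7 higher and 2 lower with Dex, where 20.6% of all genes were higher in either case and 21.6% and 21.9% lower. The median over the 13 genes was 0.15 without Dex and 0.27 with Dex. AURKA, the Aurora A kinase of the spindle poles, rose to 151% without Dex and 147% with Dex. MKI67 rose to 167% without Dex. BRCA1 and FAM83D were the genes lower without Dex, and FAM83D and PLK1 those lower with Dex (named after their values were seen). The call of BRCA1 was lost without siNS Eth replicate 1 (adjusted p = 0.0572) or siPRMT5 Eth replicate 1 (adjusted p = 0.0532). In siNS and siHP1γ cells Dex called 0 of the 13 with edgeR, and none had an unadjusted p under 0.05 or was called by DESeq2.

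**Figure D4:**
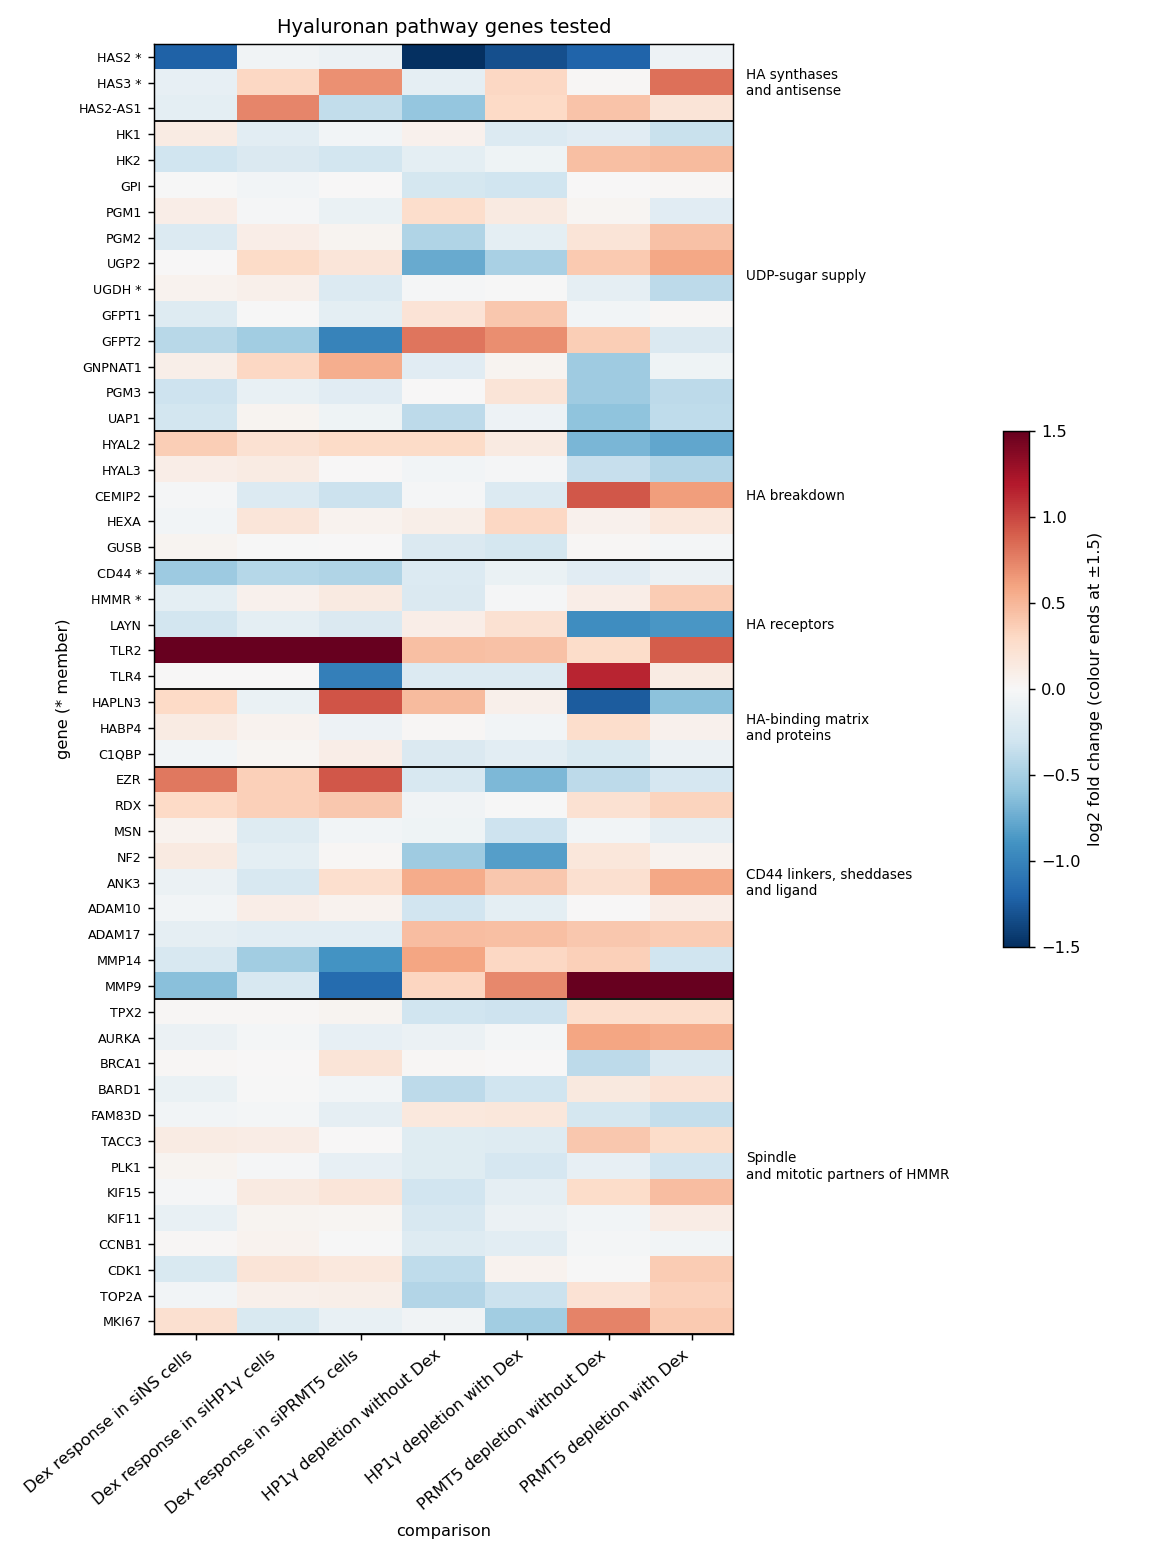
Log2 fold change (colour, which ends at ±1.5) of the members (marked with a star) and of other pathway genes tested, in rows grouped by list, in the 3 Dex responses and 4 depletion comparisons (columns). HAS2 is lower in the first column, in the columns of HP1γ depletion and in that of PRMT5 depletion without Dex. LAYN and HYAL2 are lower and CEMIP2 higher after PRMT5 depletion, and TLR2 is higher with Dex.

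The genes most alike to each member over the 18 libraries were found by Pearson's r of log2 CPM among tested genes averaging 5 CPM or more. These r describe 18 libraries that share 6 conditions, and carry no test. For HAS2 they were SLAIN1 (r = 0.957), SKA3 (0.946), PCNA (0.941), HSPD1 (0.939) and CHMP4C (0.938). SLAIN1, taken for its likeness to HAS2 in these same libraries, had means of 50.2 CPM in siNS Eth, 34.6 CPM in siNS Dex and 16.9 CPM in siHP1γ Eth cells. For CD44 they were CDK17 (0.938), NAV3 (0.932), ESM1 (0.928), TMEM154 (0.926) and FGF5 (0.922), and ESM1 went from 31.8 CPM in siNS Eth to 3.82 CPM in siNS Dex cells.

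For HMMR the genes most alike were TTK (0.964), BMI1 (0.952), SMC4 (0.950), DBF4 (0.946) and CEP55 (0.941). TTK is a kinase of the spindle checkpoint, SMC4 a condensin subunit and CEP55 a protein of cell abscission. For UGDH and HAS3 the highest r were lower, at 0.857 for LITAF and 0.817 for RIOK1. Between the members themselves r ranged from -0.64 for HAS3 with UGDH to 0.49 for HAS3 with HMMR, and it was 0.46 for HAS2 with CD44.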

How the data were processed

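RNA of MDA-MB-231 cells was measured by RNA-seq in 6 conditions of 3 replicates, grouped by the sample labels. The authors prepared libraries with Lexogen kits, mapped reads on hg38 with Bowtie2 (2.4.2) and deposited htseq-count (0.9.1) read counts per symbol, as whole numbers without normalization. The strand setting, the kit type and the annotation are not given in the sources used here. As Bowtie2 aligns without splicing, junction reads can be lost. A further deposited table holds comparisons by the authors (log2 fold changes and adjusted p-values, DESeq2 2.11.40.7) and was not used.

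Genes were kept by filterByExpr (15298) and scaled by TMM. All 18 libraries entered 1 quasi-likelihood fit in edgeR 4.0.16 (R 4.3.3) with 12 residual degrees of freedom, with adjustment over all genes tested. Called means an adjusted p under 0.01 with a change of 1.5-fold or more for Dex responses, and an adjusted p under 0.05 for depletions and for differences of Dex responses. Each SE is the log2 fold change over the square root of F. Replicates differed by more than sampling noise (chi-square per degree of freedom 2.01 to 11.3). The p-values measure the spread between samples labelled as replicates, and the labels name no batch. With 3 against 3, an exact two-sided permutation test of a single gene cannot go below 0.1.

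The members and the gene lists were chosen with earlier results of these data known. Named genes are the members and called list genes averaging 5 CPM or more, taken mainly from the 4 largest rises and falls per comparison. Not every gene in those ranks is named, and some with smaller changes are. Tests of HAS2 for both PRMT5 depletions and for the difference of Dex responses between siPRMT5 and siNS cells were planned and are not reported, because the siNS libraries that selected HAS2 are part of them. GENCODE 44 (hg38) gave coordinates, exon lengths and neighbours on the other strand. Promoter windows (250 bases before to 50 after the start) are from RefSeq on GRCh38.p14, where 4 of the 5 members matched. A gene of the lists is withheld and not reported here. The code was tested on simulated data. Alternatives were DESeq2 1.42.0, its size factors, library size alone, no filter, at least 10 counts in every library, a replicate block, a fold change of 2, the compared libraries alone, and each library left out.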

Additional observations from a re-analysis of the deposited data

Results flagged for a closer look

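The following Dex responses differed between depleted and siNS cells, as the difference of log2 fold changes (edgeR quasi-likelihood test on 18 libraries, adjusted over all genes tested). For HP1γ depletion, EZR differed by -0.43 (adjusted p = 0.0135): its Dex response was 0.79 in siNS and 0.36 in siHP1γ cells. This call was lost without siNS Eth replicate 1 (-0.41, adjusted p = 0.0609) or siHP1γ Eth replicate 3 (-0.41, adjusted p = 0.0582). HAS2 differed by 1.16 for HP1γ and by 1.13 for PRMT5, without a test since it was chosen on that response.

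For PRMT5 depletion, TLR4 differed by -1.02 (adjusted p = 0.000393), with a Dex response of 0.00056 in siNS and -1.02 in siPRMT5 cells. MMP14 differed by -0.66 (adjusted p = 0.00296), with -0.24 and -0.90. GFPT2 differed by -0.58 (adjusted p = 0.000921), with -0.41 and -0.997. GNPNAT1, an acetyltransferase of the hexosamine pathway, differed by 0.46 (adjusted p = 0.0135), with 0.090 and 0.55. In all 3 siPRMT5 Eth libraries GNPNAT1 stood at 114 to 133 CPM, below every other library, an order whose share over all genes was not counted. These 4 calls for PRMT5 were kept when any 1 library was left out. No cause of these differences was tested.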

How the results depend on the processing

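Leaving out each library in turn gave these ranges of log2 fold change where a sign or a call was not kept. For HAS2 values without a test, ranges are also given where a value shifted by at least the SD of HAS2 within conditions (log2 CPM). Untested HAS2 values ran from -1.35 to -1.12 (Dex, siNS), -1.41 to -1.18 (HP1γ with Dex), 1.07 to 1.31 and 1.04 to 1.27 (differences for HP1γ and PRMT5), with siNS Dex replicate 2 at the extreme on 1 side of each. HAS2, also untested, after PRMT5 depletion with Dex ran from -0.17 to 0.063. HAS3 ran from -0.33 to 0.027 (Dex, siNS), -0.26 to 0.014 (HP1γ without Dex) and -0.099 to 0.16 (PRMT5 without Dex). UGDH ran from -0.020 to 0.13 (Dex, siNS), -0.10 to 0.044 and -0.035 to 0.033 (HP1γ without and with Dex), and -0.048 to 0.099 (difference for HP1γ). HMMR ran from -0.050 to 0.13 (Dex, siHP1γ), -0.30 to -0.16 and -0.13 to 0.046 (HP1γ without and with Dex). CD44 without Dex ran from -0.25 to -0.17 (HP1γ) and -0.22 to -0.14 (PRMT5). Scaling by library size alone gave 0.034 and 0.078 for UGDH after HP1γ depletion without and with Dex, 0.069 for HMMR with Dex, and -0.15 for CD44 without Dex (adjusted p = 0.0622). CD44 after PRMT5 depletion without Dex missed the threshold with no filter (-0.17, adjusted p = 0.0801) and in the 6 libraries alone with edgeR (-0.18, adjusted p = 0.0501). HMMR after HP1γ depletion without Dex passed it in those 6 libraries with edgeR (-0.24, adjusted p = 0.019) and DESeq2 (-0.23, adjusted p = 0.037). The cause was not tested. The calls of HAS3, UGDH and HMMR after PRMT5 depletion with Dex were kept under every alternative and omission run. DESeq2 gave no adjusted p for HAS2 and HAS3 in some differences, which were left out.

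The replicate numbers did not pair the libraries (same-number correlations -0.0912 to 0.172, 2 of 21 over 0.1). With the replicate block, no member changed its call (CD44 after PRMT5 depletion without Dex -0.18), and genes whose Dex response differed after HP1γ depletion numbered 94 against 61. That count was 298 and 356 with DESeq2 on 18 and 12 libraries, 374 without a filter, and 20 (without siNS Eth replicate 1) to 186 (without siNS Eth replicate 2) by omission. For PRMT5 it was 582, and 319 (without siNS Eth replicate 1) to 897 (without siHP1γ Dex replicate 1). A fold limit of 2 left 194, 106 and 373 Dex responders in siNS, siHP1γ and siPRMT5 cells against 414, 255 and 832. Called pathway genes after HP1γ depletion with Dex numbered 12 without siNS Dex replicate 3, against 20. For the differences for HP1γ, EZR was the pathway gene called, and 0 were called without siNS Eth replicate 1 or siHP1γ Eth replicate 3. HAS3, at 25 to 56 counts per library, is the member most limited by depth.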

Other observations

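Several hyaluronan genes were at or near 0 in these cells. HAS1, ACAN and HAPLN4 had 0 counts in each of the 18 libraries, which allows up to 3 counts per library, that is 0.241 to 0.346 CPM of the unscaled library totals. The endothelial hyaluronan receptors LYVE1, STAB1 and STAB2 had at most 1, 2 and 1 counts per library, and the secreted hyaluronan-binding protein TNFAIP6 at most 1. The matrix proteoglycan VCAN had at most 5 counts and CEMIP, a further protein of hyaluronan turnover, at most 17. Of the list of hyaluronan-binding matrix proteins, HAPLN3, HABP4 and C1QBP had enough counts to be tested. C1QBP, a mostly mitochondrial protein, fell by 0.21 on the log2 scale after HP1γ depletion (adjusted p = 0.0175) and by 0.23 after PRMT5 depletion (adjusted p = 0.0087), both without Dex. The call after HP1γ depletion was lost without siHP1γ Eth replicate 1 (adjusted p = 0.0689) or siNS Eth replicate 3 (0.0584), and with library size as the only scaling (0.0905).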
